A study of Sorghum bicolor with 34 samples.

Results

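The 5 transcripts described here encode WRKY transcription factors of sorghum and belong to 4 genes. They are KXG35638 and KXG35639, both of SORBI_3002G202800, EER98905 of SORBI_3002G202700, EER90124 of SORBI_3010G209200 and EER88729 of SORBI_3010G209100. They were picked by their IDs out of 47110 transcripts quantified by RNA-seq. The first 2 genes carry chromosome 2 in their names and the other two carry chromosome 10, and the gene numbers within each couple follow one another.

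Plants of the inbred line BTx623, a reference line of grain sorghum, were grown in hydroponics for 10 days with low phosphorus (LP, 2.5 μM phosphate) or sufficient phosphorus (SP, 45 μM phosphate). The terminal 2 cm of seminal roots (the root apex), the next 2 cm of the same roots (the elongation zone, named intermediate root in the labels) and the first 2 cm of the lateral roots (the lateral root apex, from here on the lateral apex) were sampled. There were 2 LP and 2 SP libraries from the root apex, 2 LP and 2 SP libraries from the elongation zone, and 1 LP and 1 SP library from the lateral root apex. All plants were of 1 genotype and the groups differed by phosphate and by segment. A segment holds many cell types, so fewer cells of a type and less RNA per cell cannot be told apart.

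WRKY proteins are a large family of plant transcription factors named after a conserved stretch of amino acids in their DNA-binding domain, which recognises the W box of target promoters. Many of them are induced by pathogens, wounding and hormones, and some act in phosphate starvation: Arabidopsis WRKY75 responds to low phosphate, while WRKY6 and WRKY42 repress PHO1, which exports phosphate to the xylem. The study's annotation matched KXG35639, EER98905, EER90124 and EER88729 to Arabidopsis AT1G80840, which is WRKY40, a regulator of pathogen defence and abscisic acid responses that can repress its targets. KXG35638 is the longer transcript of the gene of KXG35639, at 1877 bases against 888 bases. A sixth transcript, EES04642 of SORBI_3004G065900, was matched to AT1G80840 as well and is given below for comparison. The roles of the sorghum genes themselves were not established by these data.

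Before the results, some features of the libraries have to be stated. Libraries held between 10114584 and 19067049 estimated counts. The LP library of elongation zone replicate 2 and the SP library of the lateral apex had 28206 and 28416 transcripts above 0, against 31840 to 36756 in the others. Both elongation zone replicates 2 and both lateral libraries had shorter fragments, as read from transcript length minus the effective length used in quantification. The median of this difference over transcripts was 166.7 to 168.8 bases there, against 185.4 to 189.8 bases elsewhere. Replicates correlated at r = 0.861 (elongation zone LP) to 0.968 (root apex SP) across transcripts, on log2(CPM + 0.5). Root apex LP replicate 2 is a root apex by its title and a whole root by its tissue label, and it was kept as a root apex. The lateral SP library is replicate 1 by its title and 2 by the name of its table, which bears only on fits with the replicate number. Apex and elongation zone segments came from the same roots. Fits that held both, including those that compared regions, treated them as independent, apart from the alternatives with a replicate block.

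The WRKY transcripts of chromosome 2 were lower in LP roots and nearly undetected in several LP libraries (KXG35639 in the elongation zone was at 1 count or less under either supply). KXG35638 and KXG35639 passed the filter on low counts through their SP libraries only. The study named the gene of EER98905 as strongly down-regulated from these samples, so the lower levels are descriptions. The transcripts of chromosome 10 were higher in LP in the lateral apex, with 1 library per phosphorus level. In the root apex their SP replicates lay far apart (133 and 36 counts for their sum), so a difference there is not settled. EER98905, the most abundant of the chromosome 2 transcripts, had about 10.0 times fewer reads per effective library in LP than in SP root apices. None of these differences passed the test across all transcripts with edgeR. The values behind each statement follow, in CPM (counts scaled to the TMM-corrected size of the library) or in counts for a transcript across libraries, and in TPM (scaled to the library and to transcript length) between transcripts.

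With edgeR's quasi-likelihood test and Benjamini-Hochberg adjustment, 0 of 5 members were called (adjusted p below 0.05) in any of the 3 regions or over all regions together. In the root apex 0.0363% of the 33039 transcripts tested were called higher and 0.182% lower in LP. In the elongation zone these shares were 0.415% higher and 0.233% lower, in the lateral apex 1.48% higher and 0.303% lower, and over all regions 0.176% higher and 0.233% lower. At an unadjusted p below 0.05, 2 members were lower in the root apex (EER98905 and KXG35639), 2 were lower in the elongation zone (EER98905 and KXG35638), 1 was higher in the lateral apex (EER90124) and 2 were lower over all regions (EER98905 and KXG35638). The same unadjusted threshold took 5.94% of all transcripts lower in the root apex, 5.88% lower in the elongation zone, 12.8% higher in the lateral apex and 5.38% lower over all regions. DESeq2, the tool named by the study for its own comparisons, called 0 members in the root apex, 1 lower in the elongation zone (EER98905), 1 higher in the lateral apex (EER90124) and 2 lower over all regions (EER98905 and KXG35638). The shares of all transcripts it called were 2.25% lower in the elongation zone, 7.29% higher in the lateral apex and 2.66% lower over all regions.

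All 5 members passed the filter on low counts, but KXG35638 and KXG35639 passed through their SP libraries only. A transcript that passes only where it is high has to differ, so the counts of members that include KXG35638 or KXG35639 are descriptions and lend no support to a lower level in LP. The study named the gene of EER98905 as strongly down-regulated from these same samples. The calls and overlaps of EER98905 are therefore descriptions too, and not independent support. In CPM, EER98905 had every LP library below every SP library, KXG35638 did so too, and 0 of 5 members had every LP library above every SP library. Over all transcripts tested, 1.28% were lower and 0.914% higher in this way. The same 2 members were lower in every LP library without the lateral libraries (4.05% of all transcripts), without elongation zone LP replicate 2 (1.76%) and without root apex LP replicate 2 (1.69%), alternatives added after the data were seen.

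**Figure D1:**
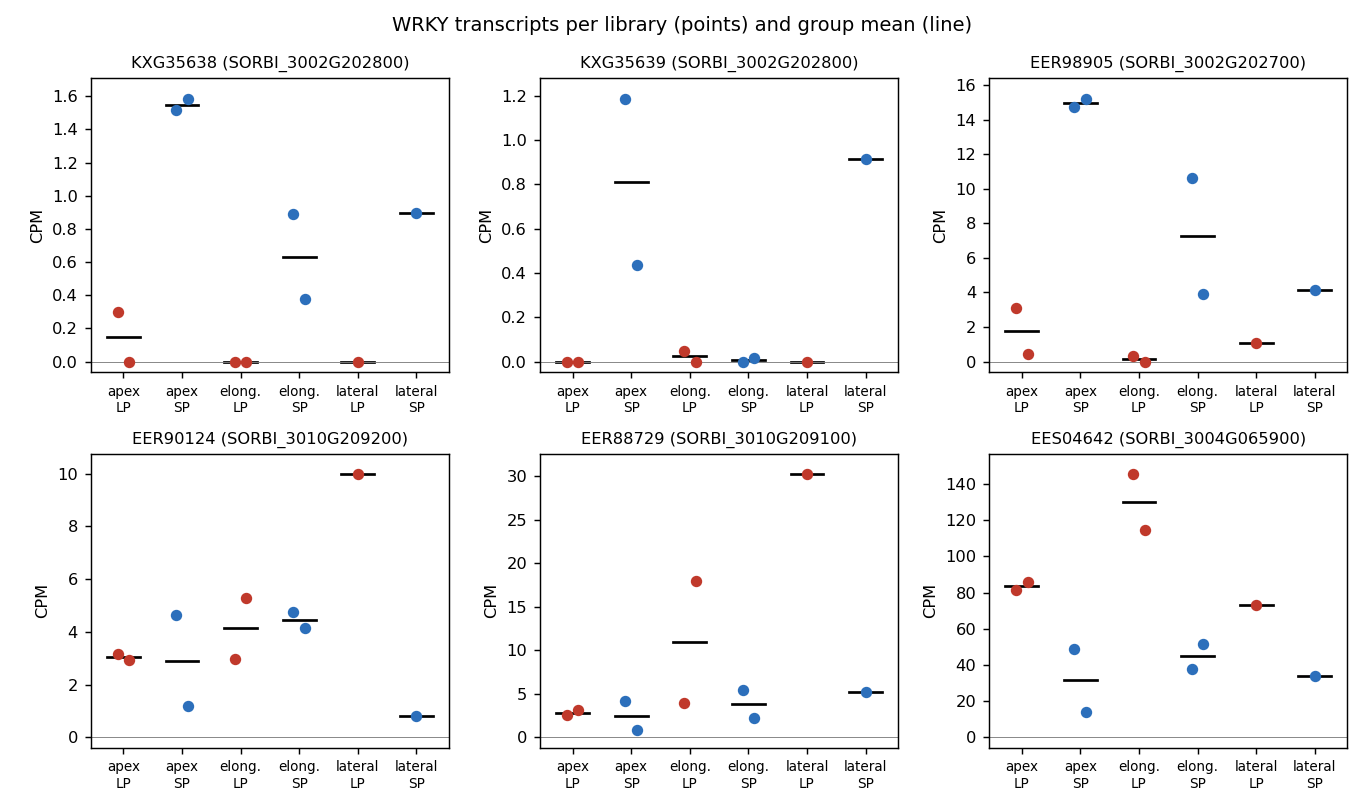
CPM of the 5 WRKY transcripts and of EES04642 in each library (points, LP in red and SP in blue) with the mean of each group (black line), by root region. All LP points of EER98905 lie below all of its SP points, while EER90124 and EER88729 overlap between LP and SP and reach their highest level in the lateral LP library.

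EER98905 is a single-transcript measurement in these files: its count was a whole number in 10 of 10 libraries (within 0.001), as is the case where no read is divided with another transcript. It had 31 and 7 counts in LP root apices, against 224 and 279 counts in SP root apices. In the elongation zone it had 7 and 0 counts under LP, against 144 and 90 counts under SP. In the lateral apex it had 15 counts under LP and 48 counts under SP. The LP libraries are low in each region, and the LP and SP ranges do not overlap in CPM: LP libraries lay between 0 and 3.09 CPM and SP libraries between 3.93 and 15.2 CPM. In TPM, which was not rescaled between libraries, they do overlap, since LP root apex replicate 1 had 3.02 TPM and the SP lateral library 2.01 TPM.

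The fitted log2 fold change of EER98905, LP over SP, was -3.10 ± 1.20 (SE, edgeR adjusted p = 0.473) in the root apex. It was -5.28 ± 1.38 in the elongation zone (edgeR adjusted p = 0.163) and -1.95 ± 1.66 in the lateral apex (edgeR adjusted p = 0.543), where each phosphorus level has 1 library and the spread is taken from the other groups. Over all regions it was -3.65 ± 0.90 (edgeR adjusted p = 0.134). From the summed counts alone, EER98905 was 10.0-fold lower in LP root apices (95% exact interval 7.20 to 14.3), 33.4-fold lower in the LP elongation zone (16.0 to 84.1) and 3.89-fold lower in LP lateral apices (2.14 to 7.48). These intervals cover counting error only and leave out the spread between replicates, each of which pooled the roots of 10 plants per the methods. With DESeq2 the decrease was called in the elongation zone (adjusted p = 0.00106) and over all regions (adjusted p = 0.00028), and with edgeR it was called in the elongation zone once LP replicate 1 was left out, which leaves the LP library with 0 counts (adjusted p = 0.0446). That fit called 8.18% of all transcripts lower and 5.02% higher there.

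Among regions under LP, EER98905 was at 0.719 TPM in the lateral apex and at 0.388 and 0 TPM in the elongation zone, against 3.02 and 0.346 TPM in the root apex. Under SP it was at 2.01 TPM in the lateral apex and at 13.3 and 4.53 TPM in the elongation zone, against 14.1 and 15.0 TPM in the root apex, where it stood highest. By mean TPM the order under LP was root apex, lateral apex and elongation zone, and under SP root apex, elongation zone and lateral apex. Neighbours under LP were not called by edgeR, with a log2 fold change of -0.71 ± 1.46 for the lateral apex against the root apex (edgeR adjusted p = 0.875) and of 2.52 ± 1.49 for the lateral apex against the elongation zone (edgeR adjusted p = 0.441). Neighbours under SP were not called either, at -1.04 ± 1.10 for the elongation zone against the root apex (edgeR adjusted p = 0.807) and -0.81 ± 1.40 for the lateral apex against the elongation zone (edgeR adjusted p = 0.709). The ends of the LP order, elongation zone against root apex, differed by -3.22 ± 1.32 on the log2 scale, which is over 2 standard errors but did not pass (edgeR adjusted p = 0.197). The LP response in the elongation zone minus that in the root apex was -2.18 ± 1.68 on the log2 scale (edgeR adjusted p = 0.754), so the region with the lowest LP counts is not shown to respond more than the apex.

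SORBI_3002G202800, whose number follows that of the EER98905 gene, is present as 2 transcripts. Their counts were whole in 6 of 10 libraries each, and their sum was whole in 10 of 10, as is the case where reads are divided only within the pair, and the sum is the firmer measure. The sum was 3 and 0 counts in LP root apices, against 41 and 37 counts in SP root apices. In the elongation zone it was 1 and 0 counts under LP, against 12 and 9 counts under SP. The lateral apex had 0 counts under LP and 21 under SP. In LP the gene was therefore at 0 in 3 of 5 libraries and never above 3 counts, while every SP library held at least 9 counts. A count of 0 allows up to 3 counts, which is 0.193 CPM in LP elongation zone replicate 2.

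From the summed counts, SORBI_3002G202800 was 19.7-fold lower in LP root apices (95% exact interval 6.49 to 97.5) and 21.0-fold lower in the LP elongation zone (3.38 to 869, with 1 LP count). In the lateral apex it was at least 8.51-fold lower in LP, taking 3 counts as the floor over the group. The fitted log2 fold change over all regions was -4.54 ± 1.09 (SE, edgeR adjusted p = 0.127), and DESeq2 gave -4.73 with an adjusted p of 0.00138. The gene has its counts in SP libraries, through which its transcripts entered the test. Values were -4.03 ± 1.56 in the root apex (edgeR adjusted p = 0.475) and -4.23 ± 1.68 in the elongation zone (edgeR adjusted p = 0.315).

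The longer transcript, KXG35638, had 3 and 0 counts in LP root apices, against 23.0 and 29.0 counts in SP root apices. In the elongation zone it had 0 counts in both LP libraries, against 12 and 8.65 counts under SP, and in the lateral apex 0 counts under LP and 10.4 under SP. That is 13.1-fold lower in LP root apices (95% exact interval 4.25 to 65.7), at least 7.00-fold lower in the LP elongation zone and at least 4.05-fold lower in LP lateral apices. Its log2 fold change over all regions was -4.63 ± 1.21 (edgeR adjusted p = 0.155; DESeq2 adjusted p = 0.00819).

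The shorter transcript, KXG35639, was at 0 in both LP root apices, against 18.0 and 7.95 counts in SP root apices, which is at least 6.56-fold lower in LP. It had 1 and 0 counts in the LP elongation zone, against 0 and 0.35 counts in the SP elongation zone, and no fold is given there. It had 0 counts in the LP lateral apex and 10.6 in the SP lateral apex, at least 4.46-fold lower in LP. Under SP, its estimated share of the gene's counts was 50.6% in the lateral apex (95% exact binomial interval 29.8 to 74.3%) and 0% and 3.88% in the elongation zone (0 to 26.5% and 0 to 33.6%). That share was 43.9% and 21.5% in the root apex (28.5 to 60.3% and 9.83 to 38.2%). These intervals treat divided reads as if counted and leave out error in the division itself. The elongation zone intervals overlap those of 1 or more apex libraries, and elongation zone against root apex under SP was not called for this transcript (edgeR adjusted p = 0.331).

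**Figure D2:**
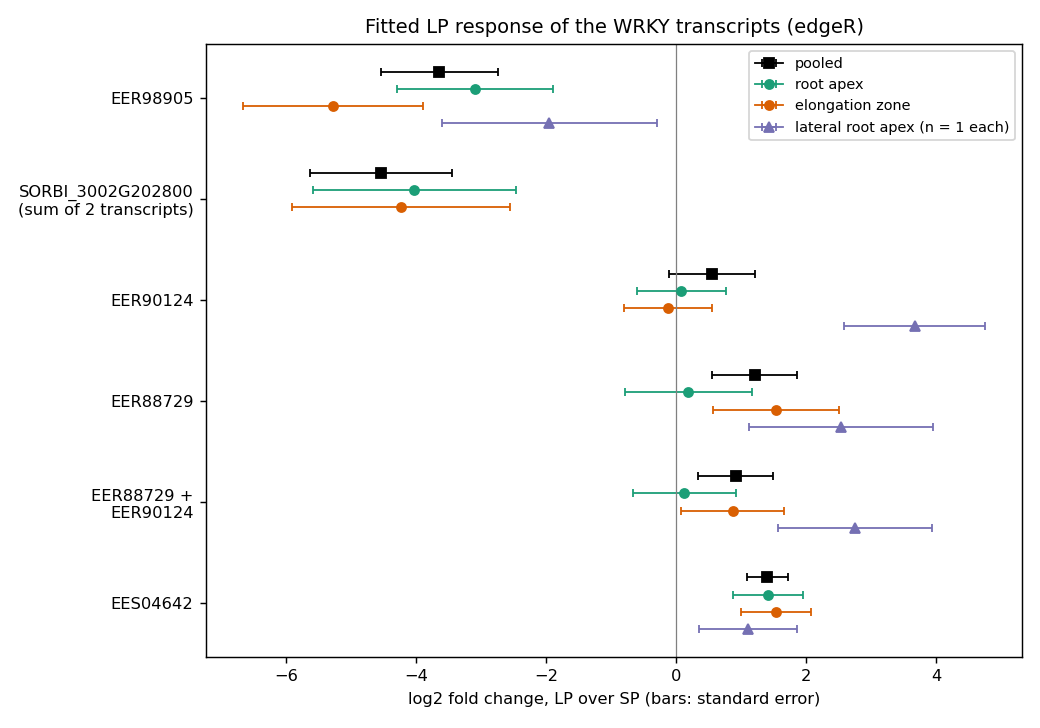
Fitted log2 fold change, LP over SP, with its standard error for the WRKY transcripts, over all regions (black squares) and in each region (colours), from edgeR. The lateral value of SORBI_3002G202800 is not drawn, since its LP library is at 0. EER98905 and SORBI_3002G202800 lie below 0 in every region drawn, and EER90124 departs from 0 by more than its error only in the lateral apex, at 3.67 ± 1.09.

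The chromosome 10 neighbours behaved otherwise. Their counts were whole in 0 of 10 libraries, but the sum of EER90124 and EER88729 was whole in 10 of 10, as is the case where kallisto divides reads between similar transcripts, and each value alone is an estimate. The sum, a measure added after the data were seen, is given beside them.

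EER90124 had 31.6 and 44.95 counts in LP root apices, against 70.2 and 21.5 counts in SP root apices. It had 61.9 and 82.3 counts in the LP elongation zone, against 64.5 and 94.7 counts in the SP elongation zone. In the lateral apex it had 141 counts under LP, against 9.32 counts under SP. The LP and SP libraries overlap in the seminal root, where the log2 fold changes were 0.08 ± 0.68 in the root apex (edgeR adjusted p = 1) and -0.12 ± 0.68 in the elongation zone (edgeR adjusted p = 0.952). Its lateral log2 fold change was 3.67 ± 1.09 (edgeR adjusted p = 0.127), and DESeq2 called it (3.62, adjusted p = 0.0305).

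The contrast between lateral and seminal responses of EER90124 was tested directly. The lateral response exceeded that of the root apex by 3.60 ± 1.25 on the log2 scale (edgeR adjusted p = 0.237) and that of the elongation zone by 3.80 ± 1.25 (edgeR adjusted p = 0.173). Neither passed. The lateral difference rests on 1 library per phosphorus level, and its SP library, with 0.803 CPM of EER90124, is one of those with few transcripts above 0. Under SP the lateral apex lay below the elongation zone for EER90124, with a log2 fold change of -2.52 ± 0.98 (edgeR adjusted p = 0.130), and limma on log2(TPM + 0.5), by which 27.2% of all transcripts were lower there, called it (adjusted p = 0.0296).

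EER88729 had 25.4 and 47.0 counts in LP root apices, against 62.8 and 14.5 counts in SP root apices. It had 83.1 and 279.7 counts in the LP elongation zone, against 73.5 and 50.3 counts in the SP elongation zone. In the lateral apex it had 426 counts under LP and 59.7 under SP. The highest values, 30.2 CPM in the lateral library and 18.0 CPM in elongation zone replicate 2, are both LP libraries, but the other LP libraries at 2.53 to 3.98 CPM lie within the SP range of 0.791 to 5.43 CPM.

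The log2 fold change of EER88729 was 2.54 ± 1.41 in the lateral apex (edgeR adjusted p = 0.358), 1.54 ± 0.97 in the elongation zone (edgeR adjusted p = 0.492), 0.19 ± 0.98 in the root apex (edgeR adjusted p = 1) and 1.21 ± 0.66 over all regions (edgeR adjusted p = 0.527). Without LP replicate 2 the elongation zone value was 0.08, so the difference there rests on that library, which is also one of those with few transcripts above 0. Under LP, EER88729 in the lateral apex exceeded the root apex by 3.43 ± 1.14 on the log2 scale (edgeR adjusted p = 0.189), which DESeq2 called (adjusted p = 0.0432).

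The sum of the neighbours was 57 and 92 counts in LP root apices, against 133 and 36 counts in SP root apices. It was 145 and 362 counts in the LP elongation zone, against 138 and 145 counts in the SP elongation zone. Lateral apices held 567 counts under LP and 69 under SP. The lateral LP library thus held 40.2 CPM and the lateral SP library 5.94 CPM. The fitted change of the sum was 2.75 ± 1.18 in the lateral apex (edgeR adjusted p = 0.250) and 0.92 ± 0.58 over all regions (edgeR adjusted p = 0.595).

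The estimated division between the neighbours also varied. Its intervals treat divided reads as if counted and leave out error in the division itself. EER88729 took 44.5% and 51.1% of the pair's counts in LP root apices, against 47.2% and 40.2% in SP root apices. In the elongation zone it took 57.3% and 77.3% under LP, against 53.3% and 34.7% under SP. In the lateral apex it took 75.2% under LP (95% exact binomial interval 71.4 to 78.6%) and 86.5% under SP (76.7 to 93.9%). The share was thus above 75% in both lateral libraries and in 1 LP elongation zone library, all of which are among the 4 libraries with shorter fragments. The fourth of these, SP elongation zone replicate 2, had the lowest share, 34.7% (26.8 to 42.8%). The lateral libraries, both with short fragments, had 32900 (LP) and 28416 (SP) transcripts above 0. The part of fragment length or of the number of transcripts detected was not tested.

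**Figure D3:**
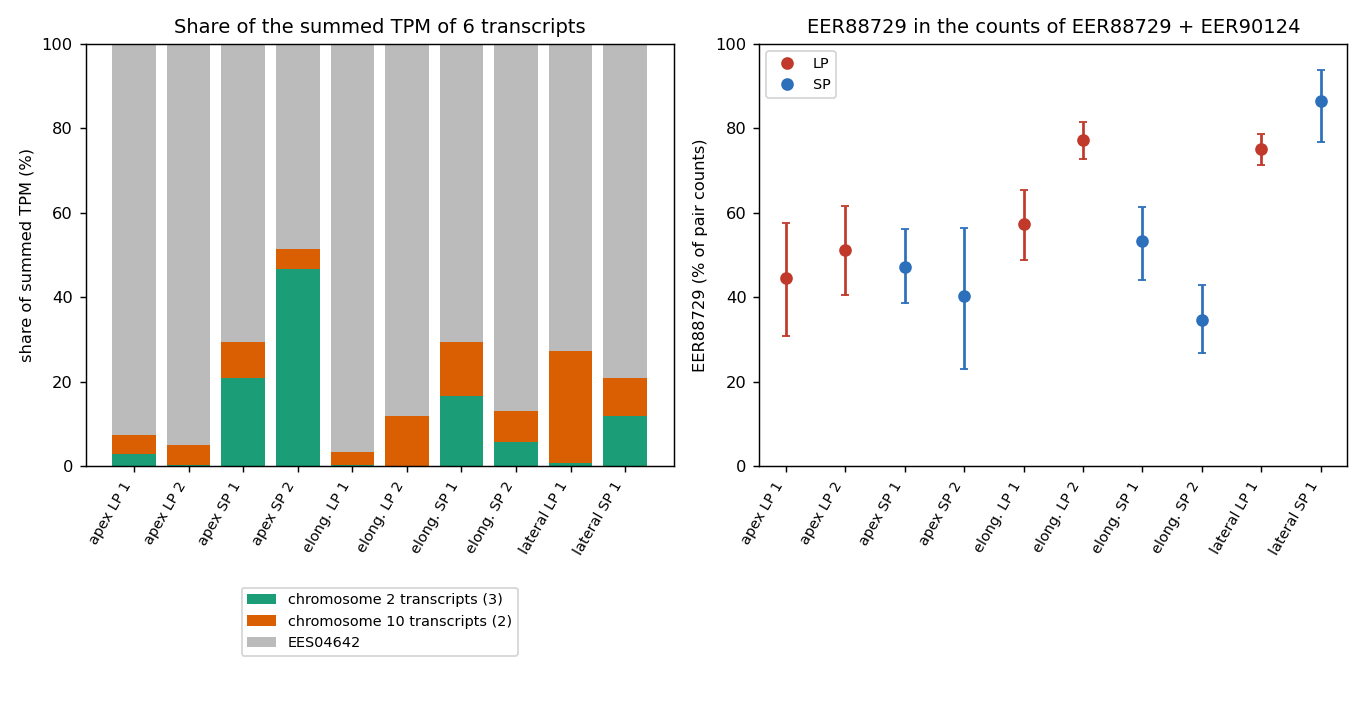
Left, share (%) of the summed TPM of the 6 transcripts held by the 3 chromosome 2 transcripts, the 2 chromosome 10 transcripts and EES04642 in each library, LP before SP within each region. Right, share (%) of the counts of EER88729 and EER90124 assigned to EER88729, with 95% exact binomial intervals, which leave out error in the division of reads. The chromosome 2 share is between 0 and 2.98% in LP libraries and between 5.67 and 46.8% in SP libraries.

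Set against each other per length, the members were transcripts of low to middle abundance. KXG35638 ranged over 0 to 0.228 TPM in LP and 0.339 to 1.21 TPM in SP, and KXG35639 over 0 to 0.104 TPM in LP and 0 to 2.13 TPM in SP. EER98905 lay between 0 and 3.02 TPM in LP and between 2.01 and 15.0 TPM in SP. EER90124 lay between 2.04 and 6.22 TPM in LP and between 0.359 and 5.48 TPM in SP, and EER88729 between 1.87 and 16.5 TPM in LP and between 0.627 and 5.47 TPM in SP. Even the highest of these, EER88729 in the lateral LP library, stood above 86.7% of all transcripts there.

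EES04642, the remaining match of AT1G80840, was the most abundant of the 6 transcripts in every library. It had 819 and 1313 counts in LP root apices, against 738 and 259 counts in SP root apices. It had 3031 and 1786 counts in the LP elongation zone, against 513 and 1183 counts in the SP elongation zone. In lateral apices it had 1034 counts under LP and 396 under SP. All LP libraries (73.3 to 145 CPM) lay above all SP libraries (14.1 to 51.7 CPM), a pattern that 0.914% of all transcripts shared. In TPM the ranges overlap, with 62.6 TPM in the lateral LP library and 75.1 TPM in SP elongation zone replicate 2. Its log2 fold change was 1.40 ± 0.32 over all regions (edgeR adjusted p = 0.109), and DESeq2 called it (adjusted p = 0.00261). EES04642 and EER98905 thus lay on opposite sides in LP: the correlation of their log2(CPM + 0.5) was -0.84 over 10 libraries, which share their LP and SP labels and regions.

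The chromosome 2 transcripts made up 2.98% and 0.400% of the summed TPM of the 6 transcripts in LP root apices, against 20.8% and 46.8% in SP root apices. They made up 0.223% and 0% in the LP elongation zone, against 16.6% and 5.67% in the SP elongation zone. In lateral apices they made up 0.836% under LP and 12.0% under SP. EES04642 held 72.7 to 96.7% of the sum in LP libraries and 48.5 to 86.9% in SP libraries. These are shares of the sum of the 6 transcripts, not of the library, and do not depend on scaling between libraries. The sum itself was 86.0 to 220.1 TPM in LP libraries and 26.4 to 86.4 TPM in SP libraries.

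**Figure D4:**
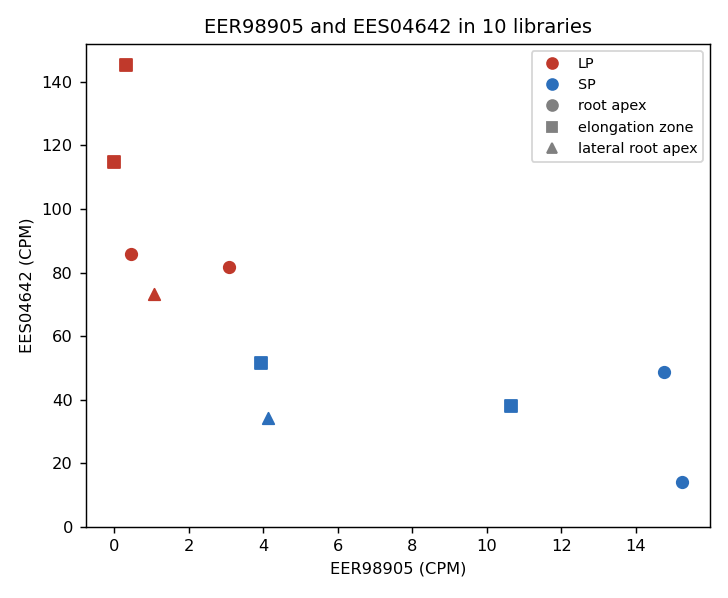
EER98905 (CPM, x axis) against EES04642 (CPM, y axis) in the 10 libraries, coloured by phosphorus and shaped by region. LP libraries lie at the upper left (EES04642 at 73.3 CPM or more, EER98905 at 3.09 CPM or less) and SP libraries at the lower right.

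Between the 3 root regions at 1 phosphorus level, 0 of 5 members were called by edgeR in any of the 6 comparisons. Of all transcripts, edgeR called 4.36% higher and 2.48% lower for the elongation zone against the root apex under LP, and 0.403% higher and 0.515% lower under SP. For the lateral apex against the root apex it called 0.294% higher and 0.106% lower under LP, and 2.35% higher and 3.28% lower under SP. For the lateral apex against the elongation zone it called 0.0878% higher and 0.0484% lower under LP, and 6.84% higher and 6.89% lower under SP.

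At an unadjusted p below 0.05, EER98905 was lower in elongation zones than root apices under LP (as were 10.7% of all transcripts) and KXG35639 was lower there under SP (7.32%). EER88729 was higher in the lateral apex than the root apex under LP (9.48%). For the lateral apex against the elongation zone under SP, KXG35639 was higher (14.0%) and EER90124 lower (18.3%). DESeq2 called 1 of these, EER88729, and 5.10% of all transcripts higher in that comparison.

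The difference of LP responses between regions was called by edgeR for 0 of 5 members, and by DESeq2 for 0. edgeR called 0.00908% of all transcripts higher and 0.00303% lower for the elongation zone minus the root apex, 0.481% higher and 0.0242% lower for the lateral apex minus the root apex, and 0.687% higher and 0.166% lower for the lateral apex minus the elongation zone. In the same order DESeq2 called 2.08% higher and 0.775% lower, 4.25% higher and 2.54% lower, and 5.38% higher and 4.84% lower. At an unadjusted p below 0.05, EER90124 was higher in both lateral differences, as were 10.9% of all transcripts against the root apex and 11.7% against the elongation zone.

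The transcripts whose pattern was most like that of each member were sought among 637 others that the study paired with a gene. These came from its phosphate starvation gene set and from its list of the genes of that set most changed in these samples. Likeness was Pearson's r of log2(CPM + 0.5) over the 10 libraries, as a description. EER98905 was closest to KXG26722 (r = 0.978), matched to Arabidopsis WAK genes, which encode wall-associated kinases, then to KXG35638 of the neighbouring gene (r = 0.950) and to EER94063, with a Band 7 domain (r = 0.940). KXG35638 was closest to KXG26722 (r = 0.965) and EER94063 (r = 0.961). EER94063 lay between 0.288 and 4.88 CPM in LP and between 16.8 and 69.6 CPM in SP libraries, and KXG26722 between 0 and 0.215 CPM in LP and between 0.442 and 1.03 CPM in SP libraries.

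KXG35639 was closest to the oligopeptide transporter EES05808 (r = 0.889), EES08296 (r = 0.888) and the oligopeptide transporter EES07571 (r = 0.876). EER88729 was closest to EER93400, a basic helix-loop-helix factor matched to AT2G14760 (r = 0.959), to EER99587 (r = 0.896) and to EER87993, a glycosyltransferase (r = 0.846). EER90124 had the weakest likeness, with r = 0.804 for EES11770, 0.759 for EER94486 and 0.745 for EER93588, and its r with its neighbour EER88729 was 0.668. The order of matches depended on the constant added. On log2(CPM + 2), EER94486 was closest to EER90124 (r = 0.808) and EES05704 (r = 0.739) took the place of EER93588. On that scale EES08296 was closest to KXG35639 (r = 0.898). The 2 groups of members were thus unlike in pattern: EER98905 correlated with EER90124 at -0.30 and with EER88729 at -0.53.

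WRKY40 of Arabidopsis acts in defence, and a list of defence and jasmonate transcripts was examined beside the members. It held 38 sorghum transcripts that the study matched to certain Arabidopsis genes. These encode lipoxygenases of jasmonate synthesis (LOX2, LOX3), wall-associated kinases (WAK1, WAK3, WAK5), a beta-glucanase (BG3), a chitinase and others. The matches come from the study's phosphate starvation gene set, which it derived from an earlier Arabidopsis study. The genes of the list were picked from that set with earlier results of these data known. Of 27 tested, edgeR called 0 in the root apex, 1 higher in the elongation zone, 1 higher in the lateral apex and 0 over all regions, with none lower. At an unadjusted p below 0.05, 2 were higher and 7 lower in the root apex (3.47% and 5.94% of all transcripts tested). Elongation zones had 4 higher and 5 lower (8.74% and 5.88% of all), lateral apices 2 higher and 5 lower (12.8% and 7.71% of all), and all regions together 0 higher and 7 lower (6.23% and 5.38% of all). The list had median log2 fold changes of -0.53 (root apex), -0.23 (elongation zone) and -0.26 (lateral apex), against 0.00, 0.01 and 0.05 for all transcripts tested. With transcripts at 0 in a group set to their bound, the list medians were -0.55, -0.23 and -0.28. By the same rule the medians of all transcripts tested were -0.004, 0.02 and 0.13.

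The call in the elongation zone was EES04197, matched to the beta-glucanase BG3, with 81 and 57 counts under LP, against 2 and 4 counts under SP. Its log2 fold change there was 4.47 ± 0.52 (edgeR adjusted p = 0.0285). In the root apex it was -0.28 ± 0.42 (edgeR adjusted p = 0.961) and in the lateral apex 2.12 ± 0.63 (edgeR adjusted p = 0.129). The call in the lateral apex was KXG19414, matched to the WAK kinases, with 23.8 counts under LP and 0 under SP, at least 6.51-fold higher in LP. Its counts are not whole numbers, as is the case where reads are divided with a similar transcript.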

How the data were processed

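RNA-seq of 10 libraries was analysed, 2 LP and 2 SP from the root apex, 2 LP and 2 SP from the elongation zone and 1 LP and 1 SP from the lateral root apex. Per the methods, poly-A libraries (ScriptSeq) were sequenced as paired ends, trimmed with Trimmomatic and quantified with kallisto against the v3.4.1 sorghum annotation. The authors deposited an estimated count (expected count, which need not be whole) and a TPM value for each of 47110 transcripts. kallisto divides reads among similar transcripts, so counts of near-identical transcripts are estimates, and 70.7% of all values were whole within 0.001. Transcript lengths and matches to genes came from the deposited files and from the study's annotation. Bisulfite and ChIP libraries were not analysed here, since the deposited methylation tables hold the authors' own comparison (p, q and difference), which was not used.

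Estimated counts, rounded to integers, were tested with edgeR 4.0.16 in R 4.3.3 (TMM, filterByExpr by group, which kept 33039 transcripts or 70.1%, quasi-likelihood F test, 6 groups, 4 residual degrees of freedom). The fit over all regions had region and phosphorus as terms (6 residual degrees of freedom). Adjusted p-values are Benjamini-Hochberg over all transcripts kept, with a threshold of 0.05, and the standard error is the log2 fold change divided by the square root of F. DESeq2 1.42.0, limma 3.58.1 on log2(TPM + 0.5), RLE scaling, no filter, a fragment length term, a replicate block, the region's own libraries alone and leaving out each replicate were alternatives. The scripts were tested on simulated data, with changes set only in the elongation zone and in more abundant transcripts. No change was set in the lateral apex or in transcripts of few counts. Bounds take 3 counts as the floor, and intervals and floors cover counting error only. Over the TMM-corrected library sizes, 3 counts are 0.131 to 0.299 CPM.

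The members and lists were chosen with earlier results of these data known. The study listed 3 members (KXG35638, EER90124 and EER88729) from these samples. In its text it also named SORBI_3002G202800 and SORBI_3002G202700, the gene of EER98905, as strongly down-regulated WRKY factors. The choice of EER98905 is thus not independent of these samples either. Named are the 5 members, the sum of SORBI_3002G202800, EES04642, the defence list transcripts called in an LP against SP comparison, and for each member the 3 transcripts of highest r. No list of all WRKY transcripts and no sequence was used here. The methods call the replicates biological but do not say whether they came from separate tubs, and p-values measure the spread between these libraries.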

Additional observations from a re-analysis of the deposited data

How the results depend on the processing

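No member was called by edgeR in any comparison, and the count of members called under the alternatives differed from 0 in these cases. DESeq2 called 1 in elongation zones, 1 in lateral apices, 1 in the lateral apex against the root apex under LP and 2 over all regions. limma on log2(TPM + 0.5) called 1 in the lateral apex against the elongation zone under SP. Leaving out each replicate gave 0 to 1 called in the elongation zone, the 1 being EER98905 without LP replicate 1, a fit with 1 LP library at 0 counts that called 8.18% of all transcripts lower. The sum of SORBI_3002G202800 over all regions was -4.73 and was called with DESeq2, -5.75 to -4.09 without each replicate, and -1.68 with limma on log2(TPM + 0.5), a scale that understates changes of low transcripts. Adjusted p over its alternatives ran between 0.00138 and 0.284, and for EER98905 over all regions, where the sign was the same in 18 of 18 settings, between 0.00028 and 0.302. Small values that were not called changed sign when 1 library was left out. Over the fits without 1 replicate, root apex log2 fold changes ran between -0.61 and 1.34 for EER90124, -0.60 and 1.85 for EER88729 and -0.60 and 1.56 for their sum, the ends being without SP replicate 2 and without SP replicate 1. In the elongation zone EER90124 ran between -0.59 (without LP replicate 2) and 0.18 (without LP replicate 1), and the sum between -0.24 (without LP replicate 2) and 1.44 (without LP replicate 1). Over all regions EER90124 ran between -0.022 (without the lateral LP library) and 1.08 (without root apex SP replicate 1). The cause was not tested.

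Deviations of same-numbered LP and SP libraries correlated at r = -0.018 in the root apex and 0.172 in the elongation zone, and those of same-numbered apex and elongation zone libraries at 0.299 under LP and 0.041 under SP, though the methods do not say that a number marks the same roots. The numbers were not taken to pair LP with SP libraries. With a replicate block EER98905 was -4.01 over all regions (edgeR adjusted p = 0.115), and 0 members were called in any comparison. With the lateral SP library as number 2 in the block, an alternative added after the data were seen, 0 members were called as well, and EER98905 was -4.45 over all regions and -3.54 in the lateral apex. Depth limits SORBI_3002G202800, with at most 3 counts in any LP library, and the lateral apex had 1 library per phosphorus level.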
